A study of Rattus norvegicus with 12 samples.

Results

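The matrix metalloproteases (MMPs), the ADAM and ADAMTS proteases and the tissue inhibitors of metalloproteases (TIMPs) were followed in ovarian RNA of rats with a drug-induced polycystic ovary. Members were taken by name, as every gene whose symbol in the deposited table was Mmp, Adam, Adamts or Timp followed by a number. This gave 62 of the 19730 genes, of which 20 were Mmp, 19 Adam, 19 Adamts and 4 Timp genes. RNA from whole ovaries of wild type Sprague Dawley rats aged 15 weeks was sequenced, with 4 rats and 1 library per rat in each of 3 groups. Control rats were untreated. PCOS rats received letrozole, an aromatase inhibitor that blocks the conversion of androgens to estrogens, for 30 days. This was combined with a high-fat diet, as the study's methods state. PCOS-MV rats received the same letrozole treatment and then mogroside V (MV), a triterpene glycoside of the fruit of Siraitia grosvenorii, for 30 days. Letrozole-treated rats are a model of some features of polycystic ovary syndrome in women, and no group received MV without letrozole, so an action of MV outside the model cannot be read from these libraries.

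MMPs are zinc proteases that cut collagens, proteoglycans and other matrix proteins, and most are made as inactive proenzymes. ADAMs sit in the cell membrane and shed growth factors, cytokines and receptors from cell surfaces, whereas ADAMTS proteases are secreted and cut proteoglycans, procollagens and microfibril proteins. TIMPs bind the active site of MMPs, and Timp3 also inhibits several ADAM and ADAMTS proteases. In the ovary the matrix around the follicle is rebuilt as the follicle grows, ruptures and turns into a corpus luteum, and members of all these families take part.

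Expression was given in FPKM (fragments mapped to a gene, scaled to its length and to the mapped fragments of the library), a level per length that can be compared between genes. The FPKM of a library summed to between 339830 and 373758 and 17576 to 18247 genes were above 0, while the read depth was unknown. One library stood apart: Control replicate 3 held 77 genes above 5 FPKM and above 5 times the level of every other library, against 0 to 2 such genes in each of the others. Among genes chosen after their values were seen, the epithelial genes Epcam and Krt18 were at 32.3 and 38.1 FPKM in that library and at most 2.90 and 5.34 FPKM in the other 11. A list of ciliated oviduct epithelium markers, of which 3 of 5 were in the file, summed to 14.8 FPKM there and to 1.96 to 3.67 FPKM elsewhere. Markers of granulosa, theca, luteal and oocyte cells were all above 0.1 FPKM in at least 1 library of every group, where they were in the file.

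Of the 62 members, 37 had a mean of at least 1 FPKM over the 12 libraries and were tested, namely 11 Mmp, 9 Adam, 13 Adamts and all 4 Timp genes. Timp1, Timp2, Timp3 and a few proteases had the highest levels, whereas Timp4 averaged 4.11 FPKM. Timp2 averaged 228 FPKM over the 12 libraries, Timp1 159 FPKM, Mmp14 86.6 FPKM, Timp3 68.6 FPKM, Mmp2 47.3 FPKM, Adam9 38.9 FPKM, Adamts1 37.8 FPKM, Adam10 33.6 FPKM and Mmp19 25.7 FPKM. Of neighbours in this order, Adamts1 overlapped both Adam9 and Adam10 in Control and PCOS-MV and lay below both in PCOS. The order also differed between groups: the mean of Timp1 was above that of Timp2 in PCOS-MV (264 and 177 FPKM, with overlapping libraries), that of Timp3 above Mmp14 in PCOS (83.9 and 74.2 FPKM), and that of Mmp2 (20.9 FPKM) below Adam9 and Adam10 in PCOS (26.3 and 34.3 FPKM). Positions in the file, whose genome build was not given in the sources used here, put Timp2 (ENSRNOG00000003148) on the minus strand of chromosome 10 from 107338465 to 107386072, Mmp2 (ENSRNOG00000016695) on the minus strand of chromosome 19 from 15542765 to 15570611 and Adam12 (ENSRNOG00000018384) on the minus strand of chromosome 1 from 205956342 to 206282575.

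In PCOS ovaries most of the proteases that passed the test were lower than in Control and the main inhibitor was higher. Limma with adjustment over all 13430 genes tested called 19 of the 37 tested members, 4 higher and 15 lower. Over all genes tested, 27.4% were called, 11.9% higher and 15.6% lower. Lower calls made up 40.5% of the tested members and higher calls 10.8%, so the excess over the background was on the lower side. The median log2 fold change was -0.49 over the tested members and -0.03 over all genes tested. The 15 lower members were Mmp2, Mmp12, Mmp15, Mmp16, Mmp19, Adam9, Adam12, Adam15, Adam17, Adam19, Adamts1, Adamts3, Adamts4, Adamts12 and Adamts14. The 4 higher members were Timp2, Adamts15, Adamts17 and Mmp23. For each of the 19 the groups did not overlap and the exact two-sided permutation test gave 0.0286, the smallest p that 4 against 4 allows. Groups that do not overlap always give this p, so it adds nothing to the gap. In all 22 tested members had groups that did not overlap, against a background of 31% of the genes. Among them was Mmp7, with a gap near 0, from 0.0537 FPKM in the lowest Control library to 0.0521 FPKM in the highest PCOS library. Without Control replicate 3, 20 members were called.

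In PCOS-MV ovaries the called proteases were mostly higher than in PCOS and 3 of the 4 inhibitors were lower. Limma called 19 of the 37 tested members, 14 higher and 5 lower, where 25.7% of all genes tested were called, 14.3% higher and 11.4% lower. Higher calls made up 37.8% of the tested members and lower calls 13.5%. The median log2 fold change was 0.33 over the tested members and 0.03 over all genes tested. The 14 higher members were Mmp2, Mmp12, Mmp14, Mmp15, Mmp19, Adam12, Adam17, Adam19, Adamts1, Adamts3, Adamts4, Adamts7, Adamts12 and Adamts14, and the 5 lower members were Timp2, Timp3, Timp4, Adamts15 and Adamts17. Groups did not overlap for 19 of the 37 tested members, the same 19, against a background of 30% of all genes tested. Calls and gaps rest on the same values, so the gaps are no separate evidence. The same PCOS libraries enter both comparisons, so a value that is low in PCOS by chance makes one fold change negative and the other positive.

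**Figure D1:**
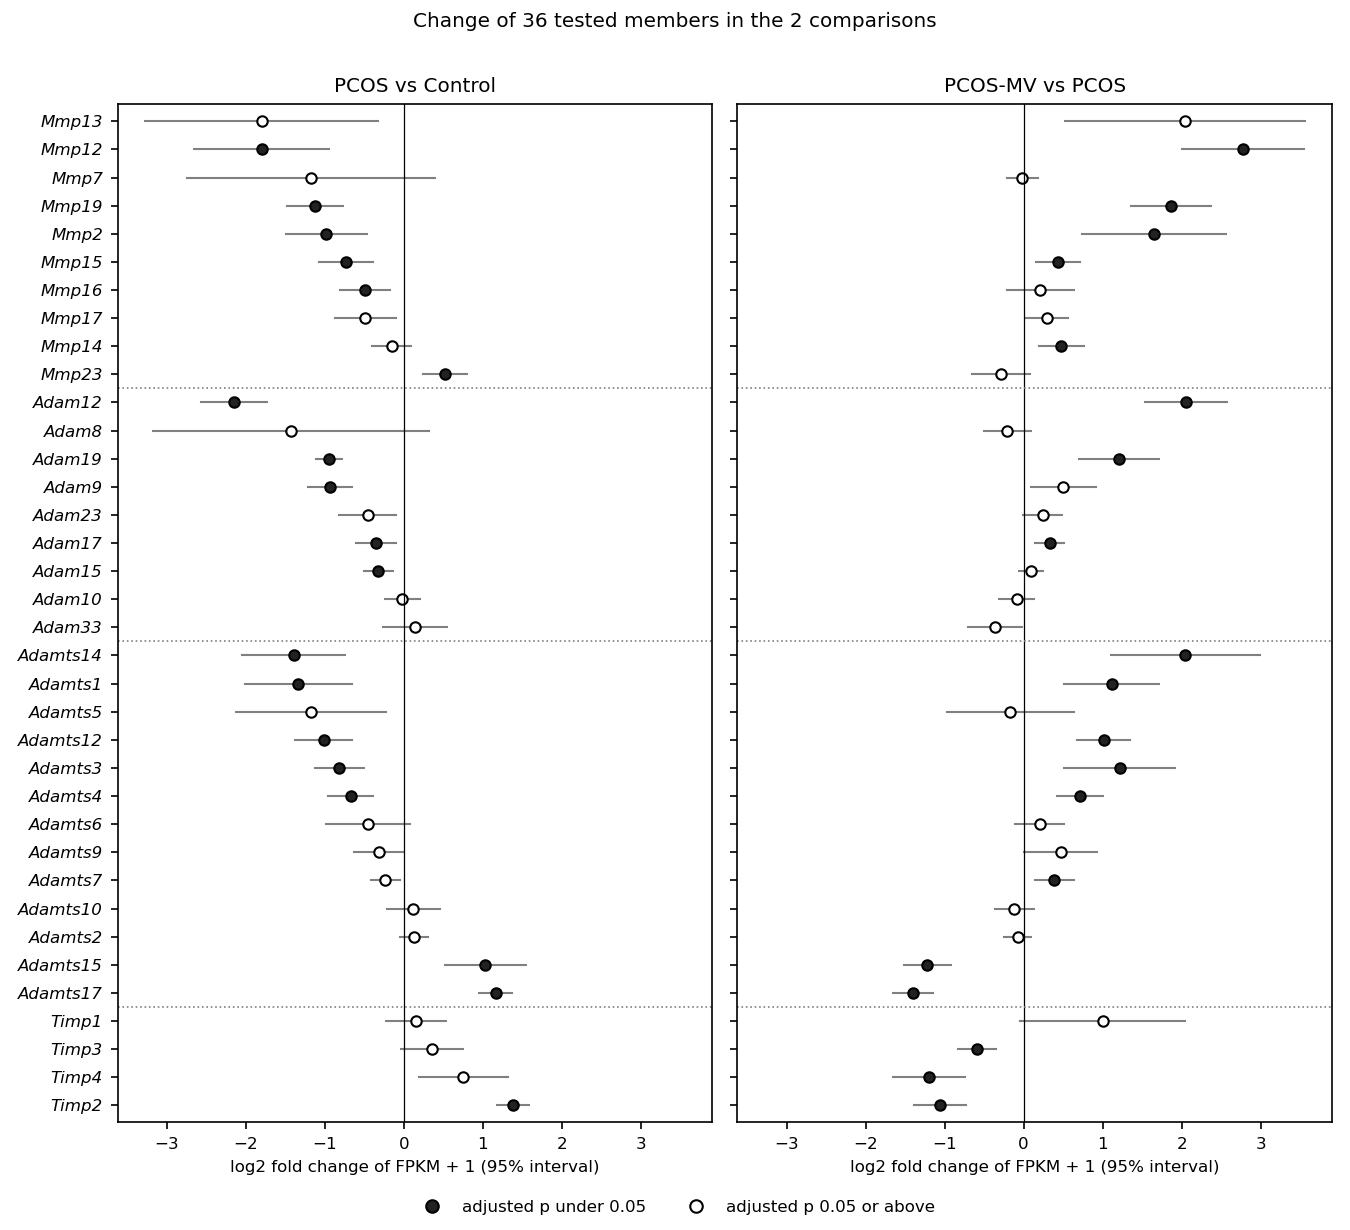
Log2 fold change of FPKM + 1 (x axis) with its 95% interval (lines) for 36 tested members (y axis), PCOS against Control on the left and PCOS-MV against PCOS on the right; filled circles have an adjusted p under 0.05 by limma. Dotted lines part the Mmp, Adam, Adamts and Timp genes; Mmp11 is not drawn because it was listed at 0 in 5 libraries. Most filled protease circles lie left of 0 on the left and right of 0 on the right, and Timp2, Adamts15 and Adamts17 lie on the opposite sides.

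The inhibitors are taken first. Timp2, which inhibits MMPs and also bridges proMmp2 to Mmp14 at the cell surface, was at 137, 147, 149 and 128 FPKM in Control, 371, 380, 325 and 389 FPKM in PCOS and 194, 187, 131 and 198 FPKM in PCOS-MV. Every PCOS library lay above every library of the other groups. The mean was 2.61-fold higher in PCOS than in Control, with a log2 fold change of 1.38 (SE 0.09, adjusted p = 2.14e-05, limma). In PCOS-MV the log2 fold change against PCOS was -1.06 (SE 0.14, adjusted p = 0.00133, limma).

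Timp4, a TIMP with a narrow tissue range, was at 2.39, 2.10, 5.31 and 4.49 FPKM in Control, 7.59, 4.76, 6.03 and 7.45 FPKM in PCOS and 1.54, 1.86, 2.23 and 3.53 FPKM in PCOS-MV. One PCOS library lay below the highest Control library, and the log2 fold change of 0.75 missed the threshold (adjusted p = 0.0532, limma). It passed without Control replicate 3 (adjusted p = 0.0174, limma). The fall in PCOS-MV against PCOS was 2.82-fold in the means (adjusted p = 0.00352, limma).

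Timp3, the matrix-bound TIMP, was at 48.7, 56.8, 81.7 and 78.1 FPKM in Control, 91.5, 85.3, 70.4 and 88.5 FPKM in PCOS and 58.6, 48.8, 61.3 and 53.4 FPKM in PCOS-MV. PCOS and Control overlapped and the log2 fold change of 0.36 did not pass the test (95% interval -0.03 to 0.75). PCOS-MV lay below PCOS throughout, with a log2 fold change of -0.59 (SE 0.11, adjusted p = 0.00534, limma).

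Timp1, a soluble TIMP which many growth factors and cytokines induce, was at 135, 100, 89.1 and 78.1 FPKM in Control, 126, 99.7, 99.7 and 116 FPKM in PCOS and 183, 375, 83.2 and 417 FPKM in PCOS-MV. Replicates 1, 2 and 4 of PCOS-MV lay above every Control and PCOS library and replicate 3 lay below every PCOS library. The log2 fold change against PCOS was 1.0 with an adjusted p of 0.143 by limma, and without PCOS-MV replicate 3 it was 1.47 with an adjusted p of 0.00757 by limma.

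The makeup of the inhibitor pool differed between the groups in the same libraries. Timp2 gave 42.4% to 48.1% of the summed TIMP FPKM in Control, 62.2% to 66.7% in PCOS and 29.5% to 47.1% in PCOS-MV. The TIMP sum was 288 to 325 FPKM in Control, 501 to 601 FPKM in PCOS and 277 to 671 FPKM in PCOS-MV. The sum of all Mmp genes other than Mmp11 was 188 to 208 FPKM, 118 to 146 FPKM and 222 to 336 FPKM in the same order. The ratio of the Mmp sum to the TIMP sum was therefore 0.579 to 0.679 in Control, 0.221 to 0.243 in PCOS and 0.501 to 0.852 in PCOS-MV. The ratio of Mmp2 to Timp2 was 0.210 to 0.452, 0.0533 to 0.0653 and 0.212 to 0.625. For both ratios the PCOS libraries lay below all others, and Control and PCOS-MV overlapped. These are ratios of transcript levels, given as a description, and say nothing of protein or activity.

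**Figure D2:**
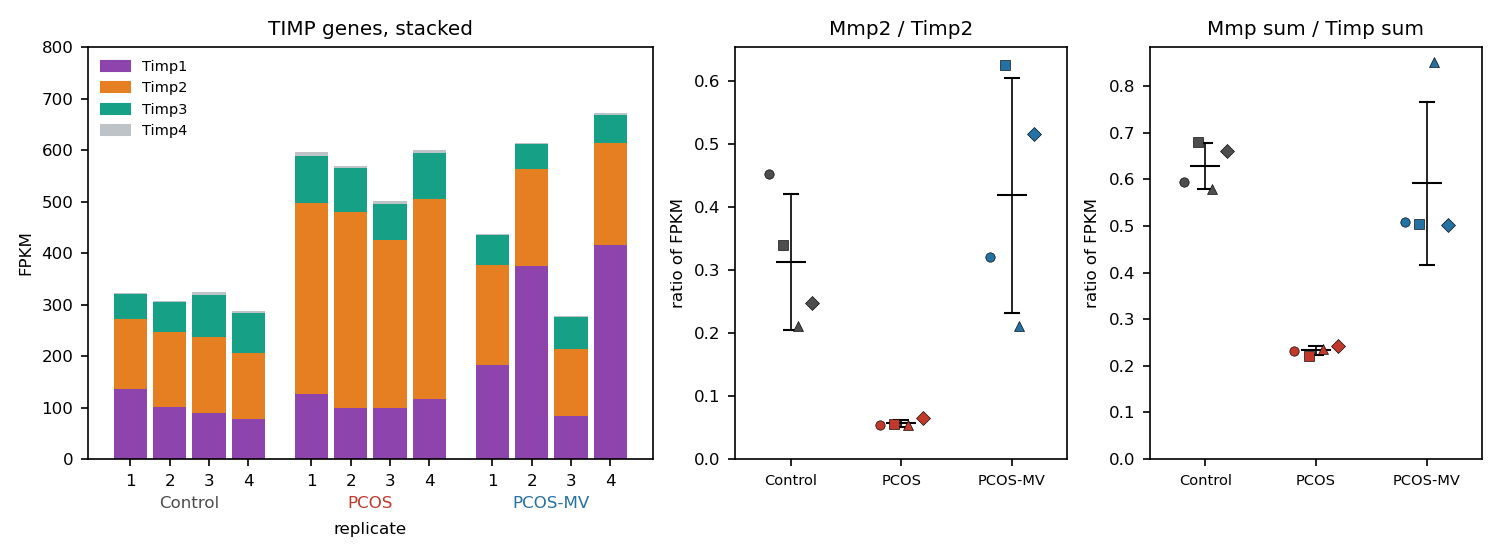
Left, stacked FPKM of Timp1 to Timp4 in each library (bars, by replicate within group); middle and right, the ratio of Mmp2 to Timp2 FPKM and of summed Mmp (without Mmp11) to summed Timp FPKM per library (points), with mean ± SD (n = 4). PCOS bars are mostly Timp2, at 62.2% to 66.7% of the sum, and the PCOS ratios of 0.0533 to 0.0653 and 0.221 to 0.243 lie below those of the other groups.

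Of the 2 gelatinases, Mmp2 alone was above the filter. Mmp2, which cuts denatured collagen and type IV collagen of basement membranes, was at 61.9, 50.2, 31.3 and 31.6 FPKM in Control, 19.8, 21.1, 17.5 and 25.4 FPKM in PCOS and 62.2, 117, 27.7 and 102 FPKM in PCOS-MV. All PCOS libraries were below all others. The log2 fold change was -0.98 in PCOS against Control (SE 0.23, adjusted p = 0.0128, limma) and 1.65 in PCOS-MV against PCOS (SE 0.40, adjusted p = 0.0174, limma). In 1 model over all 12 libraries, which pools the error of the 3 groups, the first of these did not pass (adjusted p = 0.0805, limma). Mmp9, the other gelatinase, was at 0.674, 0.150, 0.287 and 0.335 FPKM in Control, 0.339, 0.342, 0.371 and 0.546 FPKM in PCOS and 0.222, 0.596, 0.416 and 0.571 FPKM in PCOS-MV. It was under the filter, and its groups overlapped.

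Mmp14, the membrane-type MMP that activates proMmp2, was the most abundant protease and moved little. It was at 75.4, 84.2, 82.6 and 86.2 FPKM in Control, 83.5, 68.8, 61.6 and 82.9 FPKM in PCOS and 99.1, 107, 89.7 and 118 FPKM in PCOS-MV. Control and PCOS overlapped (log2 fold change -0.15, 95% interval -0.40 to 0.10). PCOS-MV lay above both, with a log2 fold change of 0.48 against PCOS (adjusted p = 0.0243, limma), a call that held in 4 of 8 fits with 1 library left out and was lost without PCOS replicate 2 or 3 or PCOS-MV replicate 2 or 4 (highest adjusted p = 0.0690).

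Among the other membrane-type MMPs, Mmp15 averaged 5.54 ± 1.44 FPKM in Control, 2.89 ± 0.322 FPKM in PCOS and 4.30 ± 0.774 FPKM in PCOS-MV (SD, n = 4). It was called lower in PCOS (log2 fold change -0.73) and higher in PCOS-MV than PCOS (0.44), the latter in 2 of 8 fits with 1 library left out (those without PCOS replicate 1 or PCOS-MV replicate 4; highest adjusted p of the others 0.0803, limma). Mmp16 averaged 1.61 ± 0.300, 0.857 ± 0.233 and 1.19 ± 0.551 FPKM, and its lower call in PCOS held in 3 of 8 such fits (those without Control replicate 1 or 3 or PCOS replicate 2; highest adjusted p of the others 0.0803, limma). Mmp17, a GPI-anchored MMP, was at means of 2.12, 1.20 and 1.7 FPKM and was called in neither comparison, though lower in PCOS without Control replicate 1 (adjusted p = 0.0294, limma). Mmp23, an MMP with an unusual membrane anchor that is removed on secretion, was the one MMP called higher in PCOS. It was at 12.8, 11.2, 9.0 and 8.73 FPKM in Control, 15.4, 16.9, 14.2 and 14.9 FPKM in PCOS and 13.9, 14.6, 8.38 and 14 FPKM in PCOS-MV, with a log2 fold change of 0.53 in PCOS against Control (adjusted p = 0.0128, limma). In PCOS-MV, replicate 3 lay apart from the others and the difference from PCOS did not pass the test.

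Of the called MMPs, Mmp12, the macrophage elastase, had the largest fold change in both comparisons. It was at 5.56, 17.2, 5.53 and 3.92 FPKM in Control, 1.5, 0.643, 1.53 and 1.52 FPKM in PCOS and 6.93, 14.6, 26.1 and 16.2 FPKM in PCOS-MV. All PCOS libraries were below all others. The mean was 6.19-fold lower in PCOS than in Control (log2 fold change -1.80, SE 0.38, adjusted p = 0.00829, limma) and 12.3-fold higher in PCOS-MV than in PCOS (log2 fold change 2.78, SE 0.34, adjusted p = 0.000849, limma). Fold changes on the log2 scale are of FPKM + 1 and are smaller than the ratio of means at such low levels. The leukocyte marker list, of which 6 of 7 genes were in the file, summed to 51.0 to 71.5 FPKM in Control, 66.6 to 77.6 FPKM in PCOS and 63.2 to 81.4 FPKM in PCOS-MV, overlapping between all groups. Its macrophage members were called in different directions in PCOS-MV against PCOS (named after their values were seen). Adgre1 and Csf1r were called higher in PCOS than in Control (log2 fold changes 0.49 and 0.45) and lower in PCOS-MV than in PCOS (-0.68 and -0.33). Cd68, a lysosomal macrophage protein, was called higher in PCOS-MV than in PCOS, as Mmp12 was (log2 fold change 0.77, adjusted p = 0.00266, limma), and its -0.51 in PCOS against Control was not called. The part of macrophages in the values of Mmp12 was not tested.

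Mmp19, a secreted MMP that cuts basement membrane proteins, was at 23.9, 30.6, 18.9 and 23.9 FPKM in Control, 8.76, 9.76, 12.9 and 10.8 FPKM in PCOS and 27.3, 39.8, 41.2 and 61.2 FPKM in PCOS-MV. The groups separated in PCOS, with a log2 fold change of -1.12 against Control (adjusted p = 0.00106, limma). In PCOS-MV it was 4.01-fold higher in the mean than in PCOS (log2 fold change 1.86, SE 0.22, adjusted p = 0.000772, limma). These calls held in 8 of 8 fits with 1 library left out.

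Mmp13, a collagenase that cleaves fibrillar collagen, was at 1.71, 4.75, 14.7 and 23.9 FPKM in Control, 0.918, 0.731, 2.93 and 2.19 FPKM in PCOS and 2.12, 6.28, 33.3 and 14.4 FPKM in PCOS-MV. Control and PCOS-MV each had a wider range than PCOS and overlapped it. Neither log2 fold change, -1.80 and 2.04, passed the test (adjusted p = 0.0718 and 0.0537, limma). The first was called without Control replicate 1 (adjusted p = 0.0127, limma) and the second without PCOS-MV replicate 1 (adjusted p = 0.0110, limma), the lowest libraries of their groups.

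Mmp13 and Mmp12 are neighbours in the Mmp gene cluster. In the file 8 members lie on the plus strand of chromosome 8 between 5522739 and 5901049, a span of 378 kb, in the order Mmp13, Mmp12, Mmp3, Mmp1, Mmp10, Mmp8, Mmp27 and Mmp7. Mmp13 averaged 9.0 FPKM and Mmp12 8.44 FPKM over the 12 libraries, whereas the other 6 averaged between 0.00120 and 1.0 FPKM. Their promoters are shown because a shared motif was present in neighbours at high and at low levels. Promoters from RefSeq (GRCr8) matched 41 of the 62 members by symbol and were searched from 250 bases before to 50 bases after the start for the AP-1 motif, TGAGTCA or its reverse complement TGACTCA, so both strands were covered. The motif was found in 7 of the 41, which is 17.1%, against 4.53% of 27457 promoters. These were Mmp13, Mmp12, Mmp3, Mmp1, Mmp10 and Mmp7 of the cluster and Adam19 elsewhere. In the cluster its first base lay between 61 and 87 bases before the start, and Mmp8 was matched without it. Other motifs searched were also more frequent in the 41 than in all promoters. The TATA box (TATAAA or TTTATA) was in 26.8% against 14.3%, and the GC box (GGGCGG or CCGCCC) in 53.7% against 34.9%. The 250 bases before the start are given 5′ to 3′ on the plus strand, at chr8:12782579-12782828, chr8:12866402-12866651, chr8:12925031-12925280 and chr8:12974457-12974706 in GRCr8, with the AP-1 motif in capitals.
Mmp13: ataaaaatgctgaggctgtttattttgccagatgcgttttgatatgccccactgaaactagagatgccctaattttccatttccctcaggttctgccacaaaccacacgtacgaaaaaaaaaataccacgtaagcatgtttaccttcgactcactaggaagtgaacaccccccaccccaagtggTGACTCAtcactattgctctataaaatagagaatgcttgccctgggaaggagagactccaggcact
Mmp12: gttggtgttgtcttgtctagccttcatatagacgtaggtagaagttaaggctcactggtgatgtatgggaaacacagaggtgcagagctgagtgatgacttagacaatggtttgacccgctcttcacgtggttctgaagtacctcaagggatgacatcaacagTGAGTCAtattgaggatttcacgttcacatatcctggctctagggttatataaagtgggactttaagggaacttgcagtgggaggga
Mmp3: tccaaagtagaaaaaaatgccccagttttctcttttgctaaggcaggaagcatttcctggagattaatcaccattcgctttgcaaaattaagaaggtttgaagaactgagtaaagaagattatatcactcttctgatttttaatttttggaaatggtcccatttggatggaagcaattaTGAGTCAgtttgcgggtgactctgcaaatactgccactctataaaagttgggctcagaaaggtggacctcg
Mmp10: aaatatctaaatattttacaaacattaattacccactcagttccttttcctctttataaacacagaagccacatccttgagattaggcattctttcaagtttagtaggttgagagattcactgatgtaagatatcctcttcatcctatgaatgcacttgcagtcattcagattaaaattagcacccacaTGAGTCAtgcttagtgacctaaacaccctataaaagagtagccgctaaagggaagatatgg

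Mmp3 and Mmp10, stromelysins that cut proteoglycans and activate other proMMPs, held the motif but were at most 1.08 and 0.869 FPKM in any library. A match of letters is a description, and whether a factor binds there was not measured.

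**Figure D3:**
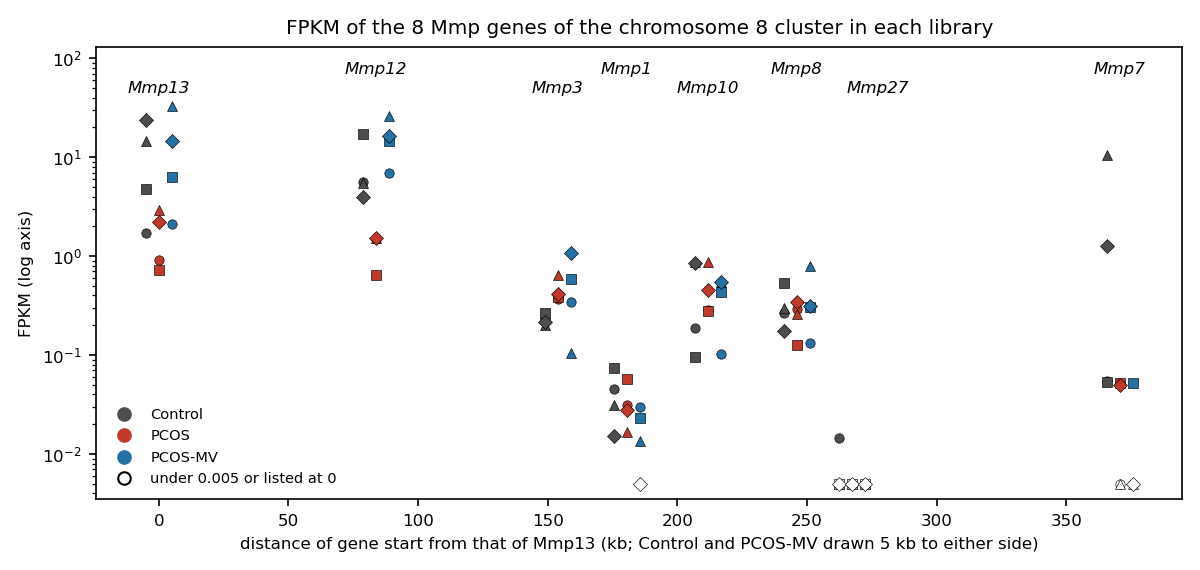
FPKM on a log axis (y) of the 8 Mmp genes of the chromosome 8 cluster in each library (points, colored by group), against the distance of the gene start from that of Mmp13 in kb (x); open points are under 0.005 FPKM or listed at 0. Mmp13 and Mmp12 stand above the other 6 genes, with the PCOS libraries lowest for Mmp12, and Mmp7 reaches 10.5 FPKM in 1 Control library.

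Mmp7, the epithelial matrilysin, was at 10.5 FPKM in Control replicate 3 and 1.26 FPKM in Control replicate 4, and at most 0.0541 FPKM in the other 10 libraries. Adam8, a leukocyte and epithelial ADAM, was at 35.5 FPKM in Control replicate 3 and 0.864 to 5.07 FPKM in the other Control libraries, with 0.677 to 1.5 FPKM in all 8 PCOS and PCOS-MV libraries. Both were high in the library with the epithelial genes named above, and neither was called. The part of that tissue in their values was not tested. Mmp11, stromelysin 3, was listed at 0 in Control replicates 2 and 3 and PCOS replicates 1, 3 and 4, and at 7.61, 10.7, 14.1, 9.07, 8.52, 10.2 and 7.43 FPKM in the other 7 libraries. Such zeros beside a level above 5 FPKM occurred in 126 of the tested genes, so no fold change is given.

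Among the 9 tested ADAMs, 5 were called lower in PCOS (15.6% of all genes tested were) and 3 higher in PCOS-MV than PCOS (14.3% of all genes tested were), and Adam12 had the largest called change in both. Adam12 (meltrin alpha), which cuts growth factor binding proteins and membrane ligands, was at 12.4, 14.4, 21.7 and 17.5 FPKM in Control, 2.72, 2.11, 3.66 and 3.22 FPKM in PCOS and 12.4, 10.8, 23.4 and 16.6 FPKM in PCOS-MV. The PCOS libraries were all well below the rest, and the lowest library elsewhere was at 10.8 FPKM. The mean was 5.65-fold lower in PCOS than in Control (log2 fold change -2.15, SE 0.18, adjusted p = 8.17e-05, limma) and 5.40-fold higher in PCOS-MV than in PCOS (log2 fold change 2.06, SE 0.23, adjusted p = 0.000588, limma).

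Adam19 (meltrin beta) was at means of 8.47 ± 0.195, 3.93 ± 0.329 and 10.9 ± 4.06 FPKM in Control, PCOS and PCOS-MV (SD, n = 4), with log2 fold changes of -0.95 and 1.21 that were both called. Adam9 (meltrin gamma) averaged 51.6 ± 9.29, 26.3 ± 1.64 and 38.8 ± 11.3 FPKM. It was called lower in PCOS (log2 fold change -0.93, adjusted p = 0.000784, limma), and its log2 fold change of 0.50 in PCOS-MV against PCOS missed the threshold (adjusted p = 0.0744, limma), which it passed without PCOS-MV replicate 2 (adjusted p = 0.0322, limma). Adam15 (metargidin) averaged 23.8 ± 2.09, 18.9 ± 1.13 and 20.2 ± 0.930 FPKM and was called lower in PCOS, a call that was lost without PCOS replicate 2 (adjusted p = 0.0513, limma).

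Adam17, which sheds TNF and the EGF receptor ligands, was at 23.0, 25.4, 21.4 and 30.2 FPKM in Control, 17.8, 21.0, 19.7 and 18.6 FPKM in PCOS and 21.8, 25.9, 24.7 and 25.8 FPKM in PCOS-MV. The lowest Control library exceeded the highest PCOS library by less than the spread within either group. The log2 fold change of -0.35 had an adjusted p of 0.0428 by limma and was called in 2 of 8 fits with 1 library left out, those without Control replicate 1 or 3 (highest adjusted p of the others 0.104). The 0.33 of PCOS-MV against PCOS was called by limma in 6 of 8, and not without PCOS replicate 4 or PCOS-MV replicate 2 (adjusted p = 0.0541 and 0.0503). Adam10, the sheddase of Notch, was at 33.0, 33.2, 36.3 and 35.7 FPKM in Control, 39.6, 33.1, 29.1 and 35.4 FPKM in PCOS and 32.1, 32.6, 33.2 and 30.0 FPKM in PCOS-MV. Its groups overlapped, with 95% intervals of the log2 fold change from -0.24 to 0.20 in PCOS against Control and from -0.31 to 0.13 in PCOS-MV against PCOS. Adam23, an ADAM without protease activity, and Adam33 averaged 0.712 to 1.38 and 1.68 to 2.43 FPKM in the groups and were called in neither comparison.

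Of the ADAMTS proteoglycanases, Adamts1, 4, 5, 9 and 15 were tested. Adamts1, a protease of versican that rises in granulosa cells before ovulation under progesterone, was at 31.6, 30.8, 72.8 and 71.4 FPKM in Control, 16, 17.1, 19.1 and 21.2 FPKM in PCOS and 29.9, 64.1, 27.1 and 53.0 FPKM in PCOS-MV. Control and PCOS-MV each split into a pair of low and a pair of high libraries, and all of these lay above PCOS. The log2 fold changes were -1.33 (SE 0.30, adjusted p = 0.0112, limma) and 1.12 (SE 0.26, adjusted p = 0.0161, limma). The paper reports prolonged diestrus in PCOS rats and a gradual return to regular cycles with MV, and gives no cycle stage at collection. The part of cycle stage in the values of Adamts1 and of the other members was not tested. Adamts4, an aggrecanase, averaged 7.90 ± 0.752, 4.63 ± 0.992 and 8.16 ± 0.832 FPKM, lower in PCOS by 1.7-fold and higher again in PCOS-MV by 1.76-fold. Adamts5, the other main aggrecanase, ranged from 12.4 to 57.5 FPKM in Control, from 6.84 to 15.1 FPKM in PCOS and from 6.41 to 19.7 FPKM in PCOS-MV. Neither Adamts5 nor Adamts9 was called. Without Control replicate 1, Adamts5 was called lower in PCOS (adjusted p = 0.0257, limma).

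Adamts15 moved the opposite way. It was at 0.878, 0.791, 2.58 and 1.36 FPKM in Control, 3.55, 4.72, 3.77 and 3.02 FPKM in PCOS and 1.05, 0.920, 0.835 and 1.35 FPKM in PCOS-MV. All PCOS libraries were above the rest, with log2 fold changes of 1.03 (adjusted p = 0.00963, limma) and -1.22 (adjusted p = 0.000481, limma). Adamts17, which acts in the fibrillin microfibril system, was at 1.25, 1.21, 1.07 and 1.27 FPKM in Control, 3.83, 3.66, 3.89 and 4.34 FPKM in PCOS and 1.22, 0.840, 0.868 and 0.611 FPKM in PCOS-MV. It was 3.28-fold higher in PCOS than in Control and 4.45-fold lower in PCOS-MV than in PCOS (adjusted p = 5.29e-05 and 0.000131, limma).

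Procollagen N-proteinases remove the amino propeptide of fibrillar procollagens. Of the 3 tested, 2 were called lower in PCOS (15.6% of all genes tested were) and 2 higher in PCOS-MV than PCOS (14.3% of all genes tested were). Adamts14 was at 2.71, 3.24, 9.27 and 5.18 FPKM in Control, 1.07, 1.11, 1.34 and 1.06 FPKM in PCOS and 2.83, 6.53, 17.8 and 10.3 FPKM in PCOS-MV. PCOS lay below both other groups (log2 fold changes -1.39 and 2.05, adjusted p = 0.00779 and 0.00837, limma). Adamts3 was at 1.54, 1.55, 2.02 and 2.35 FPKM in Control, 0.530, 0.530, 0.794 and 0.626 FPKM in PCOS and 1.85, 4.27, 1.17 and 5.08 FPKM in PCOS-MV. It was called in both comparisons (log2 fold changes -0.82 and 1.21), and the second call held in 4 of 8 fits with 1 library left out, being lost without PCOS replicate 1, 2 or 4 or PCOS-MV replicate 2 (highest adjusted p = 0.0553). Adamts2, the most abundant of the 3, averaged 17.7 ± 1.54, 19.4 ± 1.05 and 18.4 ± 1.19 FPKM and overlapped between all groups.

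Adamts12 and Adamts7 are a pair of related proteases that cut cartilage oligomeric matrix protein. Adamts12 was at 4.70, 6.29, 7.89 and 8.59 FPKM in Control, 3.00, 2.5, 2.94 and 2.88 FPKM in PCOS and 4.81, 6.52, 8.33 and 7.75 FPKM in PCOS-MV, and PCOS lay below both groups (log2 fold changes -1.01 and 1.01, adjusted p = 0.00202 and 0.00183, limma). Adamts7 averaged 5.53 ± 0.297, 4.56 ± 0.391 and 6.31 ± 0.873 FPKM and was called in PCOS-MV against PCOS alone, and of 8 fits with 1 library left out in those without PCOS replicate 2 or PCOS-MV replicate 3 (highest adjusted p of the others 0.0773, limma). Whether the changes of the pair differ was not tested. Adamts6 and Adamts10, at group means of 1.28 to 2.19 and 19.1 to 20.8 FPKM, were called in neither comparison, and Adamts6 was called lower in PCOS without Control replicate 1 (adjusted p = 0.0453, limma).

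**Figure D4:**
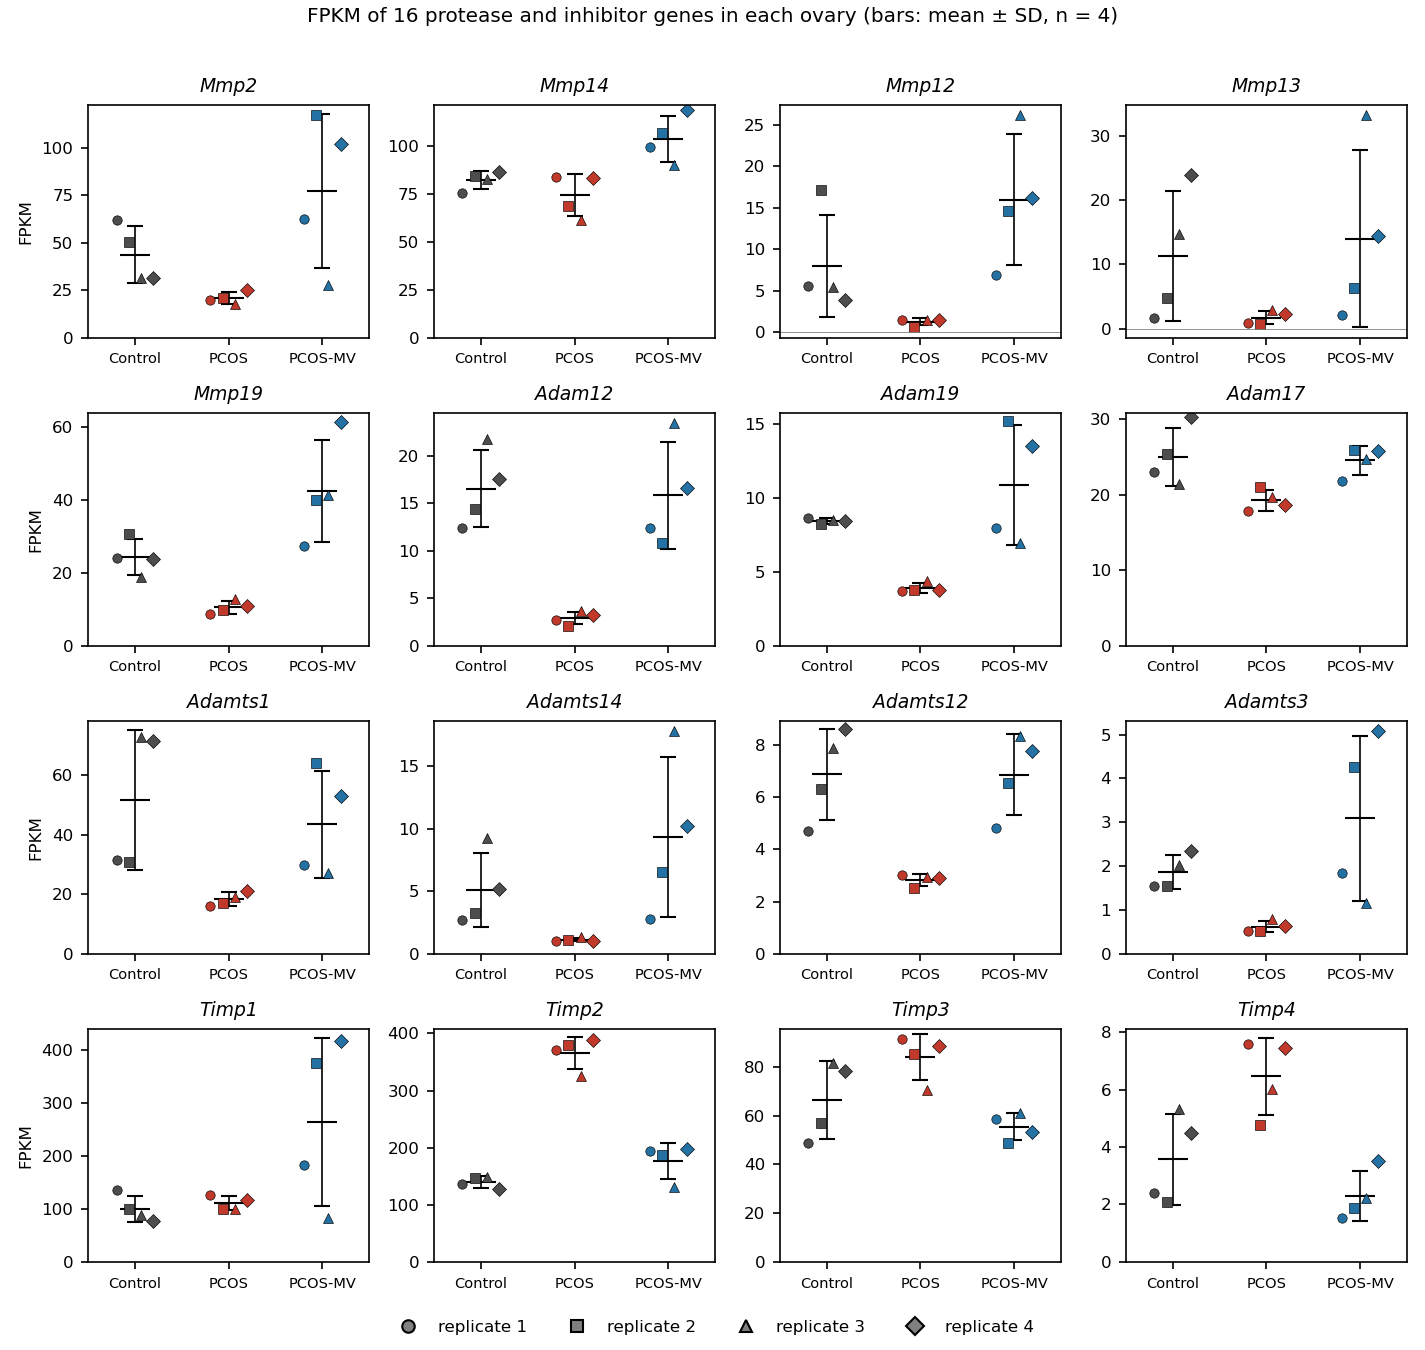
FPKM (y axis, linear) of 16 members in each ovary, by group; marker shape gives the replicate, and bars give mean ± SD (n = 4). PCOS points sit below the others for Mmp2, Mmp12, Mmp19, Adam12, Adam19, Adamts1, Adamts14, Adamts12 and Adamts3 and above them for Timp2, while PCOS-MV spreads widely for Mmp2 and Timp1.

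No member differed between PCOS-MV and Control by limma at the adjusted threshold, where 1 of all genes tested was called (0.00745%). An unadjusted p under 0.05 by limma was found for 5 of the 37 tested members and for 1142 of the 13430 genes tested. Groups did not overlap for 3 members, Mmp14 (higher in PCOS-MV), Adam15 and Mmp7 (lower), against a background of 5.1% of genes. A call that is missed does not show that the levels were alike. The 95% interval of the log2 fold change reached from -0.34 to 1.7 for Mmp2, from 0.06 to 2.26 for Timp1, from -0.10 to 2.06 for Mmp12, from 0.20 to 1.28 for Mmp19, from -2.45 to -0.22 for Adamts5 (mean 28.4 FPKM in Control and 10.1 FPKM in PCOS-MV) and from -0.0021 to 0.65 for Timp2. The median of the absolute log2 fold change was 0.25 over the tested members and 0.12 over all genes tested.

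The PCOS-MV libraries differed among themselves, and not only in these genes. Replicates 2 and 4 were both above replicates 1 and 3 for 12 of the 37 tested members (32.4%), Mmp2, Timp1, Adam19, Adamts1 and Adamts3 among them, and for 27.2% of all genes tested. Replicate 3 was the highest for 13 of the 37 (35.1%), among them Mmp12, Mmp13, Adam12, Adamts12 and Adamts14, and for 26.3% of all genes tested. Both shares were near those of all genes. The reverse pattern, replicates 1 and 3 both above 2 and 4, held for 7 of the 37 (18.9%) and for 21.7% of all genes tested. In any gene 1 of the 4 libraries is the highest, so the share for replicate 3 does not by itself set it apart. A list of luteal markers, of which 5 of 6 were in the file, summed to 2201 and 2172 FPKM in replicates 2 and 4 and to 4201 and 4538 FPKM in replicates 1 and 3 of PCOS-MV. In Control it summed to 4973, 4331, 2946 and 3127 FPKM in replicates 1 to 4, where Adamts1 was higher in the last 2 and Mmp2 higher in the first 2. Star and Scarb1, which bring cholesterol to steroid synthesis, made up most of the sum (means of 2219 and 1420 FPKM in Control), and its member Ptgfr, the luteal prostaglandin receptor, ran the other way in Control, at 45.7, 61.9, 152 and 128 FPKM. The part of the luteal share in these values was not tested.

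Markers of ovarian cell types also moved with the groups. The luteal sum was 2946 to 4973 FPKM in Control, 1046 to 2092 FPKM in PCOS and 2172 to 4538 FPKM in PCOS-MV. A sum of 4 theca and interstitial markers was 73.5 to 169 FPKM, 1689 to 3272 FPKM and 40.9 to 222 FPKM, led by Insl3, a peptide of theca cells, and Cyp17a1, the androgen-forming enzyme, whose log2 fold changes in PCOS against Control were 7.43 and 5.12. Lhcgr, the luteinizing hormone receptor, was also called higher in PCOS (1.39), and Ptch1, the hedgehog receptor, was called lower (-0.43, adjusted p = 0.0293, limma). The granulosa sum was 608 to 833, 901 to 1315 and 581 to 929 FPKM, and an endothelium sum over 4 of 5 markers was 74.9 to 92.7, 48.4 to 58.9 and 66.3 to 89.6 FPKM. The fibroblast sum of 4 markers was 532 to 743, 477 to 535 and 440 to 788 FPKM, and the smooth muscle sum of 5 was 328 to 888, 450 to 573 and 324 to 665 FPKM, overlapping in all groups. These sums held members that moved in opposite directions in PCOS against Control, named after their values were seen. Of the fibroblast markers Pdgfra was called higher (0.81) and Lum and Col1a1 lower (-0.92 and -0.66). Of the endothelial ones Vwf was called higher (0.41) and Kdr, Cdh5 and Tek lower (-1.15, -0.85 and -0.29). Of the granulosa ones Cyp19a1, Fshr and Inha were called higher (1.74, 0.90 and 0.72), while Amh and Inhbb, at -0.81 and -0.60, were not called. Of the luteal ones Ptgfr, Star and Scarb1 were called lower (-2.07, -1.70 and -1.34), while Prlr and Sfrp4, at 0.09 and 1.30, were not called. The oocyte sum of 8 was 16.9 to 30.4, 23.2 to 30.9 and 19.0 to 29.7 FPKM. Of its 5 tested markers Ooep alone was called in PCOS against Control, and was higher (1.51), with means of 3.48 and 11.5 FPKM. The others, Bmp15, Gdf9, Zp3 and Zp2, were at -0.33, -0.30, -0.15 and -0.14 and were not called. A neutrophil sum over 4 of 5 was at most 4.67 FPKM. An adipocyte sum of 3 was 4.56 to 30.7 FPKM in Control and at most 3.45 FPKM in the other libraries. In ovary sections, the paper found few corpora lutea in PCOS and clearly more in Control and PCOS-MV, and granulosa layers whose thickness recovered with MV. RNA of whole ovaries alone cannot tell fewer cells of a type from less RNA per cell. The part of these marker shifts in the changes of the proteases and TIMPs was not tested.

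Genes that act around these proteases were read from a list of 60, of which 38 were tested. In PCOS against Control 4 were called higher and 13 lower, and in PCOS-MV against PCOS 16 higher and 5 lower. As shares of the 38 these are 10.5% higher and 34.2% lower, beside 11.9% and 15.6% of all genes tested, and 42.1% higher and 13.2% lower, beside 14.3% and 11.4%. In the plasminogen activation system, whose protease plasmin activates several proMMPs, 5 genes were tested and 3 were called in each comparison, lower in PCOS and higher in PCOS-MV than PCOS; these were Plat, Plau and the receptor Plaur, the last 2 named after their values were seen. Plat, tissue plasminogen activator, was at 30.9, 37.2, 86.0 and 35.2 FPKM in Control, 12.2, 17.7, 8.47 and 11.8 FPKM in PCOS and 35.5, 98.0, 26.7 and 118 FPKM in PCOS-MV. Its PCOS-MV values were highest in replicates 2 and 4, as for Mmp2.

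Of 12 tested regulators, 1 was called higher and 6 lower in PCOS, and 6 higher and 1 lower in PCOS-MV than PCOS. In PCOS these are 8.33% higher and 50% lower, beside 11.9% and 15.6% of all genes tested. In PCOS-MV against PCOS they are 50% higher and 8.33% lower, beside 14.3% and 11.4%. The same shares of all genes tested stand beside the counts of the smaller lists below. A2m, a broad protease inhibitor, was at 91.2, 62.1, 16.6 and 30.7 FPKM in Control, 5.12, 2.98, 9.90 and 15.7 FPKM in PCOS and 78.4, 23.5, 21.0 and 45.1 FPKM in PCOS-MV, so that this inhibitor was lower in PCOS where Timp2 was higher. Tspan15, a tetraspanin that guides Adam10 to its substrates, fell from a range of 34.9 to 39.2 FPKM in Control to 7.72 to 10.5 FPKM in PCOS (log2 fold change -1.94, adjusted p = 8.69e-06, limma), while Adam10 itself was not called. In PCOS-MV it was at 28.7 to 52.6 FPKM. Of 9 tested genes for shed ligands and receptors, 1 was called higher and 1 lower in PCOS, together 22.2% where 27.4% of all genes tested were called, and 3 were higher and 1 lower in PCOS-MV than PCOS. The higher one in PCOS was Tnfrsf1b, a TNF receptor (log2 fold change 1.56, adjusted p = 2.07e-05, limma; named after its values were seen). The lower one was Hbegf, an EGF receptor ligand released by ADAMs, at 4.19 to 13.8 FPKM in Control, 1.05 to 1.88 FPKM in PCOS and 2.54 to 12.7 FPKM in PCOS-MV. Of 6 tested proteoglycan and matrix substrates, 3 were lower in PCOS and 3 higher in PCOS-MV than PCOS. Acan, the aggrecan cut by Adamts4, was at 34.1 to 131 FPKM, 18.2 to 26.8 FPKM and 51.6 to 101 FPKM in Control, PCOS and PCOS-MV. Of 3 tested ADAMTS-like proteins, which resemble ADAMTS proteases but have no protease domain, 2 were called higher in PCOS and 3 lower in PCOS-MV than PCOS. Of 3 tested astacins and pappalysins, 0 were called in PCOS against Control by limma (1 had an unadjusted p under 0.05) and 1 was higher in PCOS-MV than PCOS.

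The remaining 25 members were under the filter. Mmp28, Mmp3, Mmp24, Adamts19, Adam28 and Adam4 reached 1.07, 1.08, 1.13, 1.28, 1.45 and 1.64 FPKM in their highest library. Mmp9, Mmp8, Mmp10, Adamts8, Adamts13, Adamts16, Adamts18, Adam11 and Adam22 reached 0.207 to 0.894 FPKM. Mmp1, Mmp21, Mmp27, Adamts20, Adam2, Adam5, Adam7, Adam18, Adam30 and Adam32 reached at most 0.0819 FPKM, and several of these ADAMs are known from testis. When the filter was dropped, limma called 1 of the 25 in PCOS against Control, Mmp3, which was higher (0.203 to 0.266 FPKM in Control, 0.372 to 0.646 FPKM in PCOS, adjusted p = 0.0298). In PCOS-MV it ranged from 0.104 to 1.08 FPKM, and 0 of the 25 were called in the other comparisons. At an unknown depth, differences at these levels may go undetected.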

How the data were processed

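Ovarian RNA of 12 rats was sequenced, 1 library per rat. Groups and replicate numbers were taken from the sample titles. The PCOS-MV values stand in columns headed MG, an abbreviation the labels do not explain; they were assigned to PCOS-MV as the 1 group treated with mogroside. The authors deposited FPKM values per gene, which they computed from reads per gene and gene length. The submitters' processing notes name STAR 2.5.1b and HTSeq 0.6.0, whereas the paper's methods name other tools, and the build is not given in the sources used here. The file repeats a gene on each of its 26928 transcript lines; the lines of a gene did not differ, and 1 was kept. The file also holds the authors' own fold changes and p-values, which were not used.

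FPKM were taken as log2(FPKM + 1). The 13430 genes that averaged 1 FPKM or more over the 12 libraries were compared between pairs of groups, 4 against 4, with limma 3.58.1 (R 4.3.3, lmFit and eBayes with trend, two-sided, Benjamini-Hochberg adjustment over all genes tested, threshold 0.05). The fit was tested on simulated data. For single genes, all splits of 4 against 4 were also enumerated in an exact permutation test (two-sided). Fragment depth cannot be read from FPKM, so no counting interval is given. p-values set the difference between groups against the spread between libraries, which limma moderates with a trend over all genes. With 1 library per rat, the spread between rats and that between library preparations cannot be told apart.

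Every library's value is given for the TIMPs, Mmp2, Mmp9, Mmp14, Mmp19, Adamts1, Adam10 and Adam17 and for the 6 called members with the largest fold change in each direction and comparison whose groups do not overlap; other members are given by means or ranges, and values of Mmp7, Mmp11, Mmp13 and Adam8 by library were added after they were seen. Other genes come from fixed lists, except Epcam and Krt18. By plan these were the called ones with the largest change. More were then named than planned, called or not, after their values were seen. The members and lists were chosen with earlier results of these data known. Alternatives were other pseudocounts, filters, scaling and models, a fold threshold and leaving out each library.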

Additional observations from a re-analysis of the deposited data

Results flagged for a closer look

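In 13 of 114 groups of 4 libraries, over the members given by library or tested, 1 library stood apart from the other 3 by more than Dixon's 95% critical value allows, where about 5.7 would by chance. In Control these were replicate 3 for Adam8 (35.5 FPKM) and Mmp7 (10.5 FPKM), the library that also held epithelial genes, and replicate 2 for Mmp12 (17.2 FPKM). In PCOS these were replicate 3 for Adam19 (4.42 FPKM) and Adamts4 (6.11 FPKM), replicate 2 for Mmp11 (14.1 FPKM, the others listed at 0) and Mmp12 (0.643 FPKM) and replicate 4 for Mmp9 (0.546 FPKM). In PCOS-MV these were replicate 3 for Adamts5 (19.7 FPKM), Mmp23 (8.38 FPKM) and Timp2 (130.7 FPKM), replicate 4 for Adamts2 (16.6 FPKM) and replicate 2 for Mmp7 (0.0520 FPKM, the others listed at 0). Timp2 in PCOS-MV replicate 3 is the lowest of its group, in the library where Timp1 and Mmp2 are also lowest.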

How the results depend on the processing

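Other pseudocounts (0.1 and 0.5), no filter, median ratio scaling, and 1 model for the 12 libraries left the counts of called members at 19 to 20 in PCOS against Control and 18 to 20 in PCOS-MV against PCOS. Over all genes these fits called 3698 to 3866 and 3359 to 3575. A mean of at least 5 FPKM, where fewer members and genes are tested, gave 14 members in both, and 3011 and 2726 genes. Shares of the tested were not computed for the changed filters. With a fold change of at least 2 required as well, 9 members (3 higher, 6 lower) and 907 genes (3684 without) were called in PCOS against Control, and 13 members and 751 genes (3448 without) in PCOS-MV against PCOS. In PCOS-MV against Control the number of called genes, 1 in the reported fit, was 0 with a mean of at least 5 FPKM, 0 with the replicate block and 1 to 4 with 1 library left out, and no member was called by limma in any of these fits. Leaving out 1 library gave 17 to 23 called members in PCOS against Control, the 23 without Control replicate 1, and 15 to 19 in PCOS-MV against PCOS. Over all genes tested, these fits called 2762 to 3915 and 2445 to 3354, and those with the replicate block called 2905 and 3079. Same-numbered libraries correlated in their deviations from the group means by -0.03 to 0.02 between PCOS and Control, -0.05 to 0.22 between PCOS-MV and Control and 0.04 to 0.17 between PCOS-MV and PCOS, not above 0.1 in every pair, so the numbers were not taken as pairs; with the replicate block the called members were 18 and 20, Adam17 was no longer called in PCOS against Control (adjusted p = 0.0694) and Timp4 was (adjusted p = 0.0473). Timp4 was also called there in 1 model for the 12 libraries (adjusted p = 0.0437) and with median ratio scaling (adjusted p = 0.0462), and Adam17 was not called without the filter (adjusted p = 0.0595) or with that scaling (adjusted p = 0.0547). With 1 library left out the sign turned for 2, 1 and 9 tested members in PCOS against Control, PCOS-MV against PCOS and PCOS-MV against Control, 0 of them called, with reported log2 fold changes of at most 0.24 in size. The widest were Mmp13 in PCOS-MV against Control (-0.33 to 0.82) and Adamts5 in PCOS-MV against PCOS (-0.52 to 0.0082). Of the members given by library, Adam10 in PCOS against Control was 0.012 with median ratio scaling and -0.088 to 0.057 with 1 library left out, and in PCOS-MV against Control, with 1 library left out, Adam12 was -0.29 to 0.062, Adam17 -0.086 to 0.072, Adamts12 -0.14 to 0.14 and Adamts15 -0.31 to 0.025. The cause of these shifts was not tested. A planned test on recovered reads was not run, because only 30.0% to 34.1% of low values lay on whole-read steps. The 10% expected by chance holds for 1 fixed step size, whereas the best of many step sizes was taken. The share expected by chance after that choice is higher and was not computed. Depth is unknown, so precision at low FPKM is not known.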
